A study of Mus musculus with 10 samples.

Results

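The genes described here were Nr4a1, Nr4a2, Nr4a3, Egr1, Egr2, Egr3, Egr4, Nab1 and Nab2. They were chosen by name as 3 families of transcription factors and cofactors that answer to the antigen receptor, and they make up 9 of the 57010 genes in the count table. All 9 had enough reads to be tested, among 18966 genes. RNA was sequenced in bulk from mouse splenic CD8+ T cells of 2 groups of mice. The 3 conditional knockout mice (cKO) carried Dusp2fl/fl-E8I-cre+/- and the 2 control mice carried Dusp2fl/fl-E8I-cre-/-, so both groups had floxed Dusp2 and the Cre transgene was in the cKO mice alone. E8I is an enhancer of the Cd8a locus that drives Cre in mature CD8+ T cells. Cells of each mouse were split into a culture without beads, here called rested, and a culture given beads coated with antibodies to CD3 and CD28 for 24 h, which engage the antigen receptor complex and a costimulatory receptor. That gave 10 libraries, a rested and an activated library from each of 5 mice. Control mouse 1 and cKO mice 1 and 2 were male, and control mouse 2 and cKO mouse 3 were female. The age of the mice is not given in the sources used here.

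Dusp2 encodes a nuclear phosphatase that acts on MAP kinases, and MAP kinase signalling is a main route from the antigen receptor to the Nr4a and Egr genes. NR4A proteins are orphan nuclear receptors with no known natural hormone, whose activity follows their amount. Nr4a1 (Nur77) is widely used as a reporter of antigen receptor signalling, and NR4A factors in CD8+ T cells are known for a part in tolerance and exhaustion. EGR proteins are zinc finger factors that bind GC-rich sites. Egr1 is an early responder to the ERK pathway, while Egr2 and Egr3 are known for restraining T cell responses and for roles in anergy and in effector differentiation. NAB1 and NAB2 carry no DNA-binding domain of their own; they bind EGR proteins and repress or tune their target genes, and Nab2 is itself known as an EGR target.

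The promoters of the 3 Nr4a genes are shown first because they held the most matches to the binding sequence of CREB family factors, and an Egr2 window is shown because it held matches to both that sequence and the CArG box bound by SRF. The 250 bases before a RefSeq transcription start, in the build GRCm38.p6, were at hand for 7 of the 9 members. They were searched on both strands for the core of the cyclic AMP response element (TGACG, which reads CGTCA on the other strand), its full form (TGACGTCA), an EGR site (GCGNGGGCG), an NR4A monomer site (AAAGGTCA) and the CArG box. A full element also holds the core on each strand. Capitals mark the cyclic AMP response element core and the CArG box. Each sequence reads 5′ to 3′ on the strand of its gene: chr15:101266596-101266845 on the plus strand for Nr4a1, chr2:57124004-57124253 on the minus strand for Nr4a2, chr4:48045055-48045304 on the plus strand for Nr4a3, and chr10:67537619-67537868 on the plus strand for Egr2. The Egr2 start was taken from 5 listed starts after its matches had been seen, and the windows of 2 of the other starts held no core.
Nr4a1: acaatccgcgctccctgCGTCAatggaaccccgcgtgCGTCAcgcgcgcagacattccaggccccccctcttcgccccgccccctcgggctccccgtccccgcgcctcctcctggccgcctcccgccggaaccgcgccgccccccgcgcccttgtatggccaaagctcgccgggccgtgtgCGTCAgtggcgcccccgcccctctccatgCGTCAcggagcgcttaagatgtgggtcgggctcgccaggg
Nr4a2: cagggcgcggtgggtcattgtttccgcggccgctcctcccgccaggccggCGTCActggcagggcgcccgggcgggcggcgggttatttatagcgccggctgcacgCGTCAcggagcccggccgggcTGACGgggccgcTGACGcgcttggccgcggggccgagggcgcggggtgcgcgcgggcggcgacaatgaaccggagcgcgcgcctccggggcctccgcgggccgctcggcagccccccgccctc
Nr4a3: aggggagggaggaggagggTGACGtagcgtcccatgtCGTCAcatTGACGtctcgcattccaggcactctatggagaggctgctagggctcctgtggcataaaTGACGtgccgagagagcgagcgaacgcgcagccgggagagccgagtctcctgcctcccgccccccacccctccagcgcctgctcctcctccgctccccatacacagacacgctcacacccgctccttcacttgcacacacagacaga
Egr2: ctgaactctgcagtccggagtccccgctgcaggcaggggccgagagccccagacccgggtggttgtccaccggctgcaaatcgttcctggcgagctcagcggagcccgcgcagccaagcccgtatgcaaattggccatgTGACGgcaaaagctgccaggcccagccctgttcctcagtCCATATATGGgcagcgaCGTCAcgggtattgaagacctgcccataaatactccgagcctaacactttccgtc

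Each of the 3 Nr4a promoters held 4 cores. In Nr4a1 they began 233, 213, 69 and 40 bases before the start. The Nr4a2 cores began 200, 144, 123 and 111 bases before it, and those of Nr4a3 began 231, 213, 205 and 147 bases before it. Of the 32851 promoters of the same length in the table, 17.8% held at least 1 core and 0.137% held 4 or more. The Egr2 window held 2 cores and 1 CArG box, which 1.47% of promoters held. Egr4 had 2 cores, Nab1 had 1 core and 3 EGR sites, and Nab2 had none of the 5 motifs. Nr4a1 and Nr4a2 each held 1 EGR site, found in 4.70% of promoters. No member promoter held the full element or the NR4A monomer site. These are matches of letters, with no measurement of binding.

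Libraries held between 51203786 and 65135435 counts. Levels are given as CPM, the count of a gene scaled to the size of its library after TMM normalization, and 3 counts are worth 0.0453 to 0.0602 CPM. Dusp2, the targeted gene, had 87.8 and 97.4 CPM in rested control cells and 24.8 to 28.1 CPM in rested cKO cells. After activation it had 292 and 299 CPM in control and 46.4 to 56.3 CPM in cKO cells. Its level was therefore lower in every cKO library, and the labels do not say which exons were floxed. Summed over 8 CD8+ T cell markers, the group means lay between 2948 and 3006 CPM. Single markers moved in both directions on activation. In control cells Cd8b1 went from 639 to 388 CPM and Trac from 453 to 788 CPM. The 8 B cell markers summed to 3.58 to 6.37 CPM and the 9 myeloid markers to 0.972 to 2.23 CPM, with Fcgr1 at 0 in all 4 groups. Of 8 heat shock genes, the sum was 1083 to 1426 CPM in rested and 3410 to 4190 CPM in activated libraries, a range for each state over both genotypes. Of 8 NK and innate-like markers, Klrd1, which CD8+ T cells also express, made up nearly all of the sum, with 214 CPM at rest in control and 201 CPM at rest in cKO cells. Ncr1 was at 0 in both rested groups. At rest Klre1 was at 1.11 CPM in control and 2.51 CPM in cKO cells, and Klra3 at 0.424 and 0.792 CPM. Klrd1, Tyrobp (0.198 and 0.0837 CPM) and Zbtb16 (0.295 and 0.279 CPM) were lower in cKO cells at rest. Of the 7 markers of this list that were tested, 4 had a log2 fold change above 0 at rest, and none passed between genotypes in either state. After activation Klre1 was at 0.926 and 2.03 CPM and Klra3 at 0.941 and 2.01 CPM. The part of these differences in the members' values was not tested. For cKO mouse 3, the title of each library gives another genotype or state than its library name and characteristics do, and the latter were followed here. Without this mouse all 9 genes still rose on activation in both genotypes, and no member passed between genotypes.

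**Figure D1:**
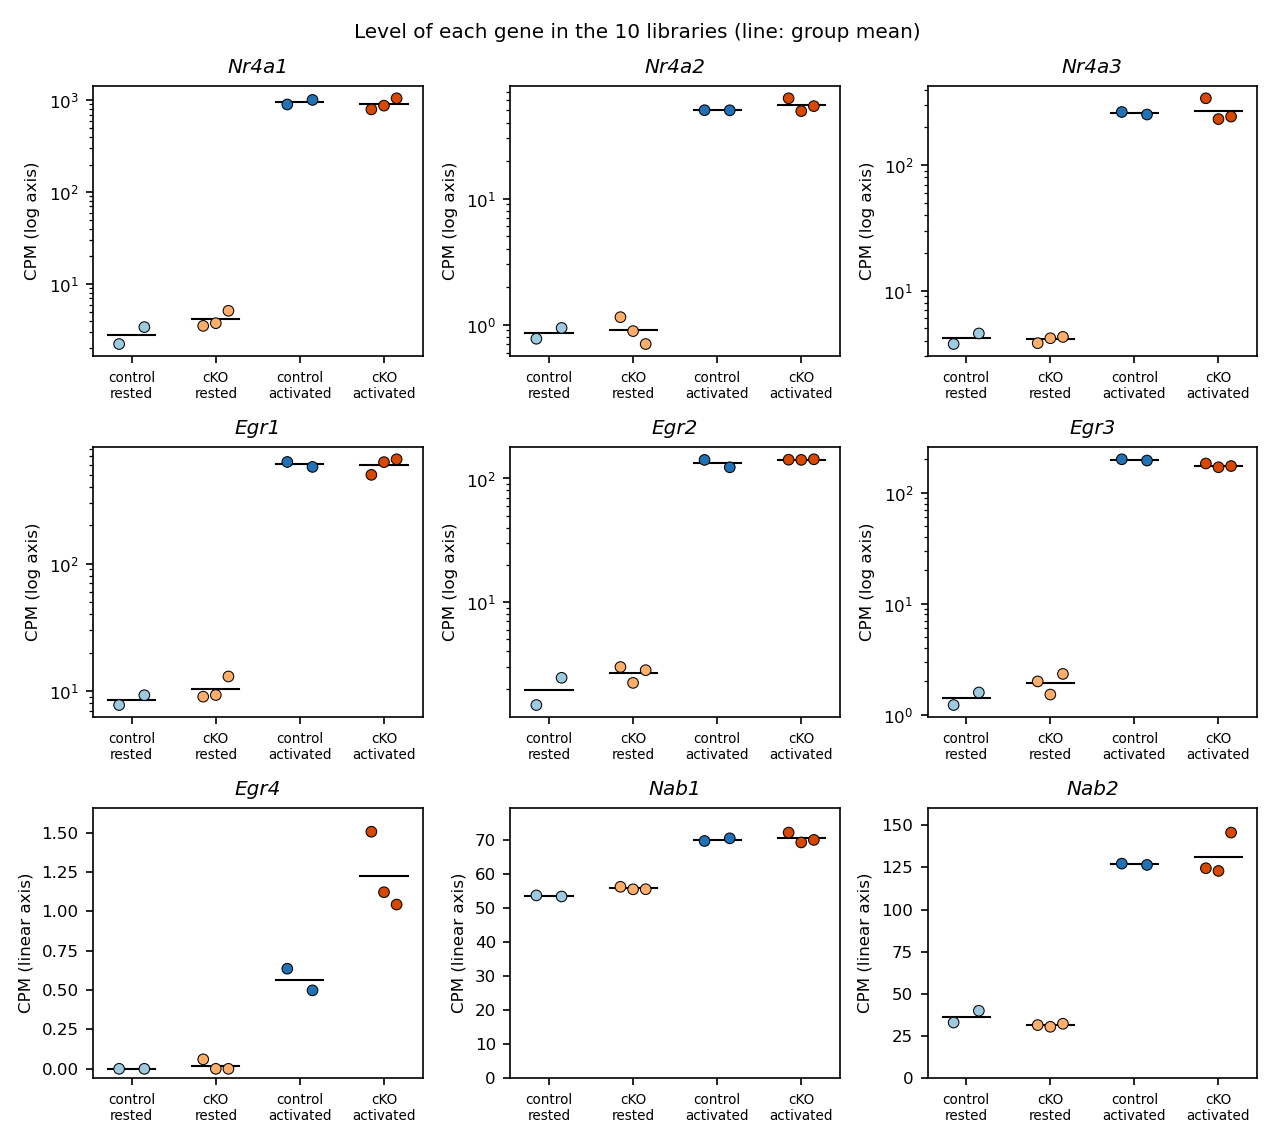
Level of the 9 genes in CPM (counts scaled to library size), by group, with a point for each library and a line at the group mean. The 3 Nr4a genes and Egr1, Egr2 and Egr3 are on log axes and Egr4, Nab1 and Nab2 on linear axes. Every activated library sits above every rested library for all 9 genes, with Nab1 moving least.

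Activation raised all 9 genes in both genotypes. In control cells 9 of 9 passed the test as higher, where 28.5% of all genes tested did, and in cKO cells 9 of 9 did, where 31.5% of all genes did. No activated library overlapped a rested one for any of the 9. Among all genes, 38.7% in control and 33.5% in cKO cells were higher with no overlap. The median log2 fold change over the 9 genes was 6.08 in control and 5.89 in cKO cells, beside -0.002 and -0.008 over all genes tested. With Egr4, which had no rested reads in control cells, set to its lower bound, the control median was 5.96. The test was edgeR's quasi-likelihood F test with Benjamini-Hochberg adjustment over all genes tested, and a gene passed at an adjusted p below 0.05. Because CPM is a share of each library, a change in the RNA content of the cells is not seen, and in bulk samples fewer cells expressing a gene cannot be told apart from less RNA per cell.

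Among the nuclear receptors, Nr4a1 (chr15:101152150-101172676, mm39) made the steepest rise. Rested cells had 2.23 and 3.41 CPM in control and 3.51, 3.76 and 5.13 CPM in cKO mice. Activated cells had 900.1 and 1009 CPM in control and 795, 874 and 1051 CPM in cKO mice. Within each control mouse that was a 404-fold and a 296-fold rise, and within the cKO mice a 226-fold, a 233-fold and a 205-fold rise. The fitted log2 fold change was 8.42 ± 0.12 (SE, adjusted p = 4.45e-14) in control and 7.78 ± 0.10 (adjusted p = 5.65e-15) in cKO cells, the 10th and 23rd highest of the 18966 genes tested. An unnamed long noncoding RNA overlaps Nr4a1 over 2740 bases. It had 12.4 CPM in activated control cells, and whether counting used the strand is not given in the sources used here.

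Nr4a3 (Nor1) rose from 3.76 and 4.56 CPM to 265 and 253 CPM in control mice and from 3.82, 4.18 and 4.28 CPM to 341, 233 and 244 CPM in cKO mice. Its folds were 70.5 and 55.5 in control and 89.3, 55.7 and 56.9 in cKO mice. Activated cKO mouse 1 stood above the other 4 activated libraries. Nr4a2 (Nurr1) was the least abundant of the 3 at rest, with 0.772 and 0.940 CPM in control and 1.14, 0.887 and 0.701 CPM in cKO mice. It reached 50.2 and 50.1 CPM in control and 62.4, 49.3 and 54.0 CPM in cKO mice. Both genes rose by a log2 fold change close to 6: Nr4a3 by 5.96 ± 0.22 in control and 6.05 ± 0.18 in cKO cells, and Nr4a2 by 5.87 ± 0.17 in control and 5.93 ± 0.14 in cKO cells.

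Of the EGR factors, Egr1 had the highest level in both states. It went from 7.77 and 9.28 CPM to 628 and 575 CPM in control mice, and from 9.04, 9.31 and 13.0 CPM to 498, 626 and 659.5 CPM in cKO mice. That was 80.9-fold and 61.9-fold in control and 55.1-fold, 67.3-fold and 50.7-fold in cKO mice, so the ranges of the genotypes overlapped. Egr3 (chr14:70314652-70320063, mm39) started lower and rose further. Rested cells had 1.22 and 1.58 CPM in control and 1.99, 1.51 and 2.32 CPM in cKO mice, and activated cells had 200.5 and 195 CPM in control and 184, 169.9 and 174 CPM in cKO mice. The folds of Egr3 were 165 and 124 in control mice and 92.4, 112 and 75.0 in cKO mice. Its fitted log2 fold change was 7.15 ± 0.14 (adjusted p = 3.35e-12) in control, the 61st highest of all genes tested, and 6.51 ± 0.11 (adjusted p = 5.29e-13) in cKO cells.

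Egr2 (chr10:67371305-67378018, mm39), which with Egr3 is tied to anergy genes, had 1.47 and 2.45 CPM in rested control and 2.99, 2.23 and 2.82 CPM in rested cKO cells. After activation it had 141 and 123 CPM in control and 142, 141 and 143 CPM in cKO cells, and the 3 cKO libraries lay closer together than the control pair. The fold within a mouse was 95.8 and 50.3 in control and 47.4, 63.5 and 50.6 in cKO mice, so the control mice themselves differed by more than the genotypes did. Egr4 stayed rare. No read was counted in either rested control library, and 3 reads were counted in the rested cKO libraries, all in cKO mouse 1. Activated control cells had 0.636 and 0.498 CPM (71 reads) and activated cKO cells had 1.51, 1.12 and 1.04 CPM (219 reads). The rise was at least 22.5-fold in control, taking 3 reads over the rested group as the floor, and 69.1-fold in cKO cells with an exact 95% interval for counting error of 23.3 to 338.

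The cofactors behaved differently in size. Nab1 had 53.8 and 53.5 CPM in rested control and 56.4, 55.6 and 55.7 CPM in rested cKO cells, and 69.8 and 70.6 CPM in activated control and 72.3, 69.4 and 70.2 CPM in activated cKO cells. The rise was small and even, between 1.25-fold and 1.32-fold in the 5 mice, and it passed the test (log2 fold change 0.39 ± 0.06, adjusted p = 7.55e-05, in control and 0.34 ± 0.05, adjusted p = 3.06e-05, in cKO cells). Nab2 (chr10:127496787-127504437, mm39) had 33.1 and 40.1 CPM in rested control and 31.6, 30.6 and 32.3 CPM in rested cKO cells. After activation it had 127 and 126.5 CPM in control and 125, 123 and 146 CPM in cKO cells. Its folds were 3.85 and 3.16 in control mice and 3.95, 4.02 and 4.50 in cKO mice. Nab2 shares 1668 bases with Nemp1 and 40 bases with Stat6 on the other strand. Nemp1 had 39.5 CPM and Stat6 364 CPM in activated control cells, both genes that could lend reads to Nab2 if strand was not used.

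**Figure D2:**
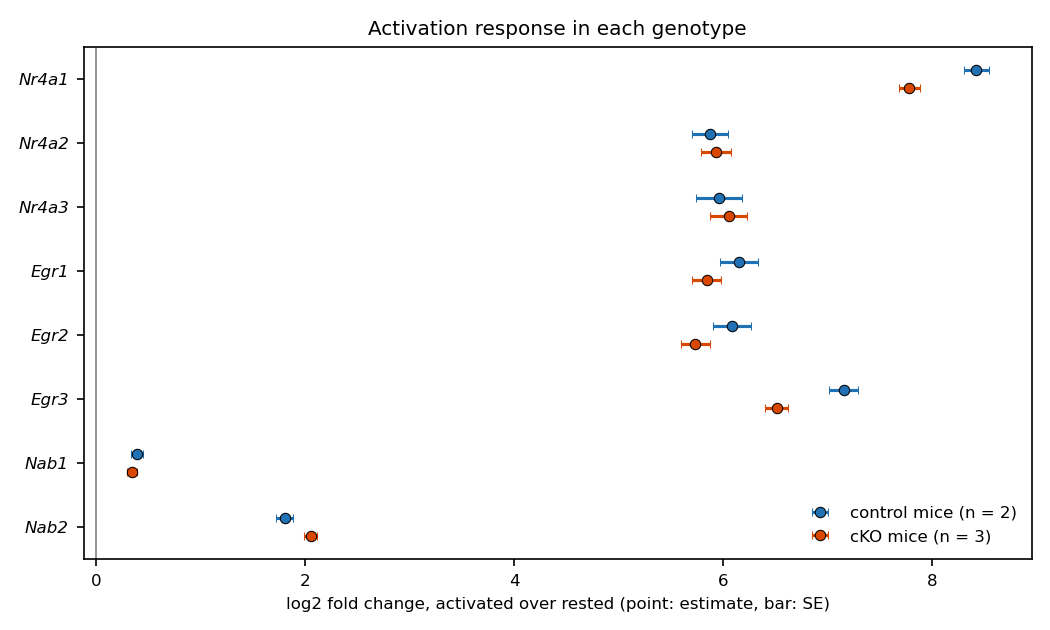
Fitted log2 fold change of activated over rested cells in control mice (n = 2) and cKO mice (n = 3), with bars for the standard error. Egr4 is not drawn because its rested libraries held 0 to 3 reads. Nr4a1 (8.42 and 7.78) and Egr3 (7.15 and 6.51) lie furthest right, and Nab1 (0.39 and 0.34) lies nearest 0.

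Levels can be compared between genes only per length, for which the deposited FPKM values were used. In rested control cells the cofactors led, with Nab1 at 12.8 ± 0.01 FPKM (SD, n = 2) and Nab2 at 12.1 ± 1.7 FPKM, whose ranges overlapped. Egr1 followed at 1.86 ± 0.24 FPKM. Nr4a1 at 0.784 ± 0.23, Nr4a3 at 0.678 ± 0.095 and Egr2 at 0.564 ± 0.20 FPKM each overlapped the next in that order. Egr3 at 0.31 ± 0.058, Nr4a2 at 0.206 ± 0.029 and Egr4 at 0 FPKM came last. Activated control cells had another order. Nr4a1 led at 278 ± 20 FPKM, the 142nd highest of all genes tested after having been the 13030th at rest. Egr1 came second at 137 ± 9.7 FPKM. Egr3 at 45.9 ± 1.2, Nr4a3 at 44.2 ± 1.8 and Nab2 at 44.1 ± 0.52 FPKM overlapped each in turn. Below them stood Egr2 at 39.8 ± 4.2, Nab1 at 17.5 ± 0.01, Nr4a2 at 12.6 ± 0.11 and Egr4 at 0.27 ± 0.048 FPKM. In activated cKO cells the order was the same for the first and second place (264 ± 38 and 136 ± 19 FPKM, n = 3), while Egr3 (40.9 ± 1.6 FPKM) stood below Egr2 (42.7 ± 0.10 FPKM).

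The makeup of each family changed with activation. Nr4a1 gave 46.6% ± 4.0 of the summed NR4A FPKM in rested control and 56.1% ± 5.4 in rested cKO cells, in ranges that did not overlap (43.7% to 49.4% and 52.1% to 62.2%). After activation its share was 83.0% ± 1.5 in control and 81.2% ± 4.7 in cKO cells, in overlapping ranges. Nr4a3 went from 41.0% to 13.2% in control and from 32.9% to 14.5% in cKO cells. In the EGR family Egr1 stayed first, at 68.3% and then 61.5% in control cells, and the share of Egr3 went from 11.3% to 20.6%. Within the NAB pair Nab2 went from 48.6% to 71.6% in control and from 44.0% to 72.0% in cKO cells. The summed EGR level was 0.109 ± 0.013 of the summed NAB level in rested control and 0.147 ± 0.024 in rested cKO cells, with no overlap between genotypes. In activated cells it was 3.62 ± 0.21 times the NAB level in control and 3.48 ± 0.25 times in cKO cells, with overlap. These shares and ratios were described and not tested. They are built from the levels of the same members, so they are no separate evidence of a difference between genotypes. How often such shares fail to overlap was not computed. Of all single genes tested, 8.96% were higher and 8.69% lower in rested cKO cells with no overlap.

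**Figure D3:**
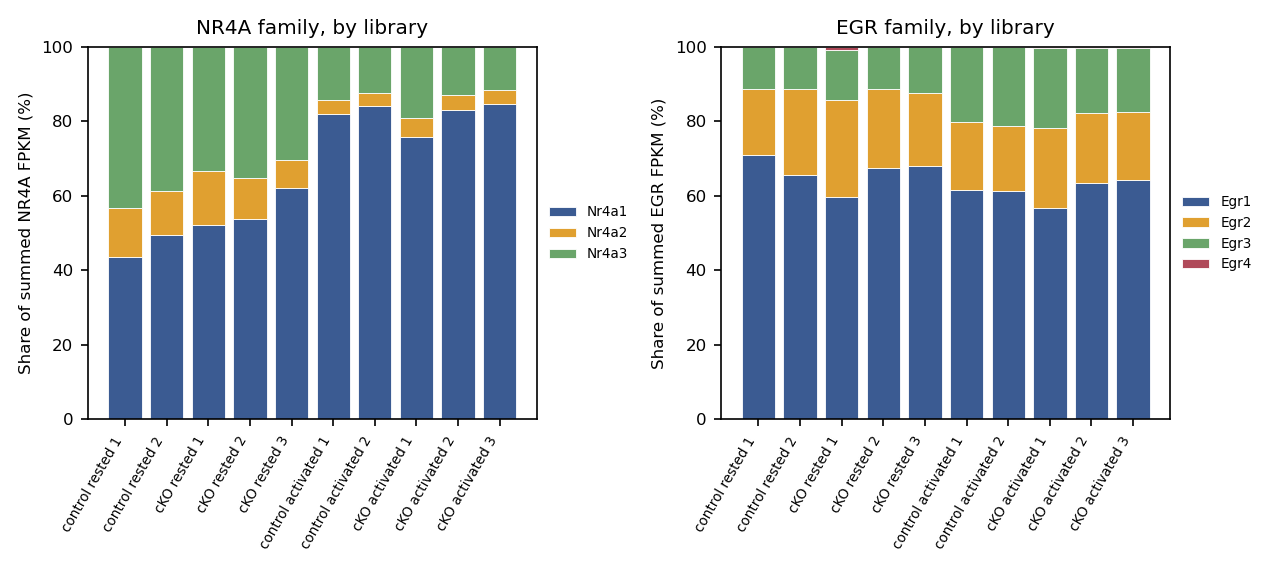
Share of the summed FPKM of the NR4A family (left) and the EGR family (right) that each gene gave, as stacked bars, in each of the 10 libraries, with the mouse number after the group. The share of Nr4a1 lies between 43.7% and 62.2% in rested and between 75.8% and 84.7% in activated libraries.

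Between genotypes at rest, no member passed the test. The counts were 0 of 9 members against 0.0422% of all genes tested, which is 8 genes, while 7 of 9 members had a log2 fold change above 0, as had 51.3% of all genes. The 7 include Egr4, whose value of 3.21 ± 2.0 rests on 3 reads in cKO mouse 1. Without Egr4, 6 of 8 members were above 0. Nr4a1 came nearest: its log2 fold change in cKO over control was 0.62 ± 0.12 (SE), with an adjusted p of 0.184 and an unadjusted p of 0.000136 that ranked 14th of 18966. Without cKO mouse 3 the value was 0.52 ± 0.14 (adjusted p = 1.0). In a fit without the sex term the value was 0.56 ± 0.23, with a larger SE. Its 3 cKO libraries (3.51 to 5.13 CPM) lay above both control libraries (2.23 and 3.41 CPM), but the lowest cKO value and the highest control value were only 3.51 and 3.41 CPM. Within sex the difference was 0.71 in males and 0.59 in females on the log2 scale. An unadjusted p below 0.05 was reached by 4 of 9 members (Nr4a1, Egr2, Egr3 and Nab2) and by 4.13% of all genes. DESeq2's Wald test called 1 member, Nr4a1 (adjusted p = 0.00614), and limma on the FPKM values called none. Without the low-count filter edgeR's test called 3 members (Nr4a1, Egr1 and Egr2), among 204 genes, with smaller SEs.

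The EGR genes had values on the same side with overlapping libraries. Egr2 had a log2 fold change of 0.46 ± 0.20 and Egr3 of 0.48 ± 0.16, with both adjusted p at 1.0, and Egr1 had 0.32 ± 0.15. For Egr2 the value was 0.83 without control mouse 2 and 0.13 without control mouse 1. For Egr1 it was 0.12 without cKO mouse 3, the highest rested library at 13.0 CPM. The cofactor Nab2 had a log2 fold change of -0.19 ± 0.07 (adjusted p = 1.0), and its 3 cKO libraries lay below both controls. Nr4a2 (0.07 ± 0.23), Nr4a3 (-0.03 ± 0.22) and Nab1 (0.06 ± 0.05) differed by less than or about 1 SE. Of the 9 members, 2 were higher with no overlap (Nr4a1 and Nab1; 8.96% of all genes) and 1 was lower with no overlap (Nab2; 8.69% of all genes). Other lists were read in the same rested libraries. The summed level of the 4 CD4 and regulatory T cell markers was 3.49 to 6.05 CPM in control and 5.73 to 10.1 CPM in cKO cells. These ranges overlapped, and none of the 4 was at 0. Zbtb7b made up most of the sum, with means of 3.20 CPM in control and 5.13 CPM in cKO cells. Cd4 itself had 0.243 CPM in control and 0.893 CPM in cKO cells (log2 fold change 1.87, adjusted p = 0.941 by edgeR's test). Of the 4, 3 had a log2 fold change above 0 and none passed, while Cd40lg was lower in cKO cells (0.707 and 0.549 CPM). Of the 8 activation markers, 5 were positive, with a median log2 fold change of 0.11 and none past edgeR's test. Irf4, a factor induced in proportion to receptor signal, had the smallest p of them (0.53 ± 0.14, adjusted p = 0.996). It passed by DESeq2's Wald test (adjusted p = 0.0422). It also passed edgeR's test without the low-count filter, where the SE was smaller (0.52 ± 0.08, adjusted p = 2.88e-08). Their part in the values of the Nr4a and Egr genes was not tested.

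After activation, again 0 of 9 members passed the test between genotypes, against 0.0422% of all genes, and adjusted p ranged from 0.814 to 0.997. The log2 fold change was above 0 for 7 of 9 members and for 50.7% of all genes. Nr4a1 had a log2 fold change of -0.03 ± 0.08, Egr1 of 0.01 ± 0.13 and Nab1 of 0.01 ± 0.05. Nr4a2 (0.13 ± 0.11), Nr4a3 (0.06 ± 0.16), Egr2 (0.11 ± 0.12) and Nab2 (0.06 ± 0.07) also lay within 1.5 SE of 0. Egr3 was lower in all 3 cKO libraries than in both controls (-0.16 ± 0.09, adjusted p = 0.84). Egr4 was higher in all 3 (1.04 ± 0.43, adjusted p = 0.814), at levels of 0.498 to 1.51 CPM. It was the only member with an unadjusted p below 0.05, which 6.02% of all genes had. With Egr2, 2 members were higher with no overlap (7.7% of all genes), and 1, Egr3, was lower with no overlap (9.36% of all genes).

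**Figure D4:**
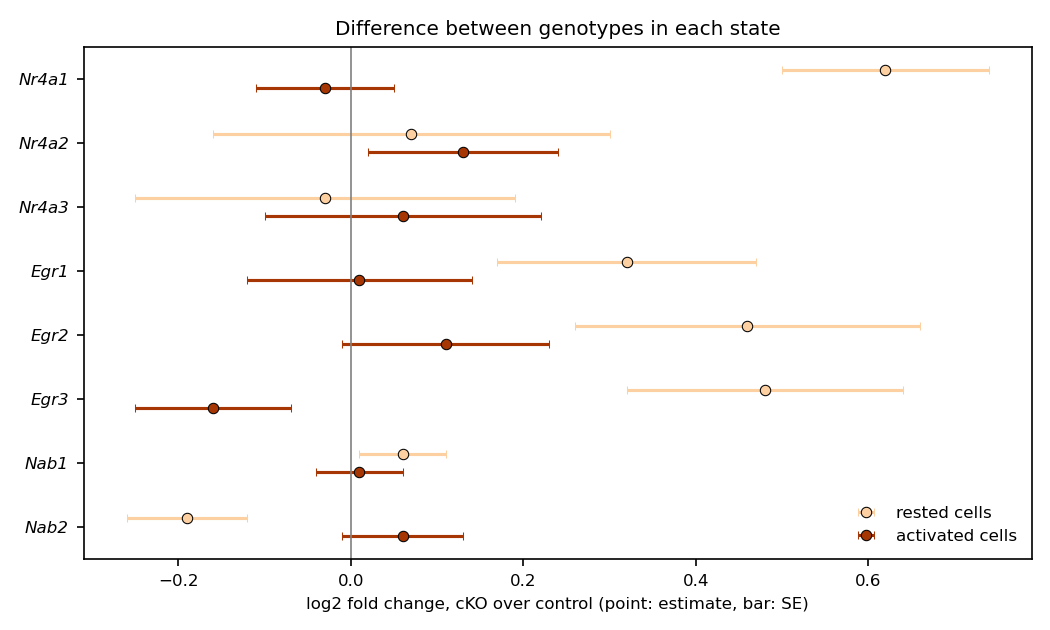
Fitted log2 fold change of cKO over control cells in rested and in activated cells, with bars for the standard error. Egr4 is not drawn because its rested libraries held 0 to 3 reads. At rest Nr4a1 (0.62), Egr3 (0.48) and Egr2 (0.46) lie to the right of 0, and after activation all 8 genes lie between -0.16 and 0.13.

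The difference in the activation response itself was tested as an interaction, which uses the same rested libraries as the comparison at rest, so it is no separate evidence. No member passed it, and neither did any other gene (0.0% of genes tested, by edgeR's quasi-likelihood test). Nr4a1 had an interaction of -0.64 ± 0.14 on the log2 scale (unadjusted p = 0.000437, the 4th smallest, adjusted p = 1.0), which is a 1.56-fold smaller rise in cKO cells. Egr3 had -0.64 ± 0.19 (adjusted p = 1.0) and Nab2 had 0.25 ± 0.10 (adjusted p = 1.0). Of the 8 members with a fold in every mouse, 3 had all cKO folds below both control folds (Nr4a1, Egr3 and Nab1), as had 8.94% of all genes with a fold in every mouse, and 1 had them above (Nab2), as had 6.98%. Nr4a1, Egr3 and Nab2 had an unadjusted p below 0.05 for the interaction, as did 519 of all genes (2.74%). Without control mouse 1 the interaction of Nr4a1 was -0.40 and that of Egr3 was -0.41, and without control mouse 2 they were -0.87 and -0.85. Without cKO mouse 3 they were -0.58 and -0.48. In a fit without the sex term they were -0.63 ± 0.29 and -0.64 ± 0.20. DESeq2's Wald test also called no member, with an adjusted p of 0.195 for Nr4a1. Without the low-count filter edgeR's test called Nr4a1 and Egr3, among 39 genes (adjusted p = 3.27e-05 and 0.0253). Their SEs were then smaller, at 0.11 and 0.15.

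Factors known to act on Nr4a and Egr promoters changed in both directions on activation. Of 16 listed, 15 were tested: 5 rose and 5 fell in control cells, 5 rose and 7 fell in cKO cells, with a median log2 fold change of -0.14 and -0.16. Of all genes tested, 27.6% fell in control and 31.9% in cKO cells. Nfatc1, an NFAT factor activated by calcineurin, rose by 1.08 ± 0.07 in control and 0.95 ± 0.06 in cKO cells (adjusted p = 5.82e-08 and 1.22e-08). Its relative Nfatc3 fell by 0.75 ± 0.06 in control and 0.76 ± 0.05 in cKO cells. Mapk3, which encodes the kinase ERK1, fell by 1.2 ± 0.08 in control and 1.15 ± 0.07 in cKO cells. Between genotypes none passed in either state. The smallest p at rest was that of Nfatc2 (0.15 ± 0.09, adjusted p = 1.0), and after activation that of Elk4, an SRF partner (-0.20 ± 0.06, adjusted p = 0.656).

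Most other immediate early genes also rose, with a lower median. Of 26 tested, 19 rose and 3 fell in control cells (median 1.26), and 22 rose and 3 fell in cKO cells (median 1.45). Atf3, a stress-responsive factor of the ATF family, rose by 7.35 ± 0.16 in control and 8.15 ± 0.14 in cKO cells. Fosb, an AP-1 subunit, rose by 4.82 ± 0.16 in control and 4.82 ± 0.13 in cKO cells. Nfkbid, an IκB family protein, rose by 2.62 ± 0.08 in control and 2.62 ± 0.06 in cKO cells. No gene of this list passed between genotypes, where the median log2 difference was -0.03 at rest and 0.09 after activation.

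Genes known as EGR2 and EGR3 targets in T cells moved in both directions. Of 13 tested, 7 rose and 3 fell in control cells, and 9 rose and 3 fell in cKO cells, with medians of 1.07 and 1.01. Tnfrsf9, which encodes the costimulatory receptor 4-1BB, rose from 1.27 ± 0.36 CPM to 201 ± 12 CPM (SD, n = 2) in control cells, a log2 fold change of 7.3 ± 0.21. In cKO cells its log2 fold change was 6.9 ± 0.16. Sema7a, a membrane-anchored semaphorin, rose by 6.2 ± 0.30 in control and 6.85 ± 0.25 in cKO cells. Dgka, a diacylglycerol kinase that limits signalling downstream of the receptor, fell by 1.23 ± 0.10 in control and 1.36 ± 0.08 in cKO cells. Neither genotype comparison gave a call in the edgeR fit with the filter. At rest Tnfrsf9 had the smallest p (0.66 ± 0.24, adjusted p = 1.0), and after activation Sema7a did (0.60 ± 0.18, adjusted p = 0.724). Without the low-count filter both passed edgeR's test, with smaller SEs (0.66 ± 0.13 and 0.60 ± 0.10, adjusted p = 0.000448 and 1.86e-07). Sema7a also passed without cKO mouse 2 (0.75, adjusted p = 0.026).

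Among 12 genes linked to NR4A activity in CD8+ T cells, 7 rose and 1 fell in each genotype, with a median log2 fold change of 1.9 in control and 1.78 in cKO cells. The inhibitory receptor gene Lag3, which is also in the EGR list, rose by 6.3 ± 0.31 in control and 5.95 ± 0.25 in cKO cells. Ctla4, another inhibitory receptor, rose by 2.72 ± 0.19 and 2.63 ± 0.16. Tox2 rose by 4.86 ± 0.57 in control cells, from 0.0435 CPM, and by 3.56 in cKO cells, from 0.111 CPM. At such levels of a few reads the size of a fold is uncertain. Tox, a factor known for its role in exhausted cells, fell by 0.83 ± 0.09 in cKO cells. It also fell in control cells, with a log2 fold change of -0.71. None passed between genotypes. The smallest p in both states was that of Cd38, at 0.74 ± 0.35 in rested and 0.92 ± 0.35 in activated cells (adjusted p = 1.0 and 0.78).

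Partners of the NR4A, EGR and NAB proteins mostly fell by small amounts on activation. Of 10 listed, 8 were tested: 2 rose and 5 fell in each genotype, with medians of -0.36 and -0.35. Chd4, a helicase of the NuRD complex to which NAB2 binds, rose by 0.61 ± 0.06 in control and 0.64 ± 0.05 in cKO cells, while its relative Chd3 fell by 0.80 ± 0.08 and 0.90 ± 0.06. Rxrb, which encodes a retinoid receptor of the RXR family that pairs with NR4A1 and NR4A2, fell by 0.47 ± 0.07 in control cells. The coactivator gene Crebbp fell by 0.51 ± 0.05 in cKO cells. Both also fell in the other genotype, Rxrb with a log2 fold change of -0.42 in cKO cells and Crebbp of -0.37 in control cells. No partner passed between genotypes.

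**Figure D5:**
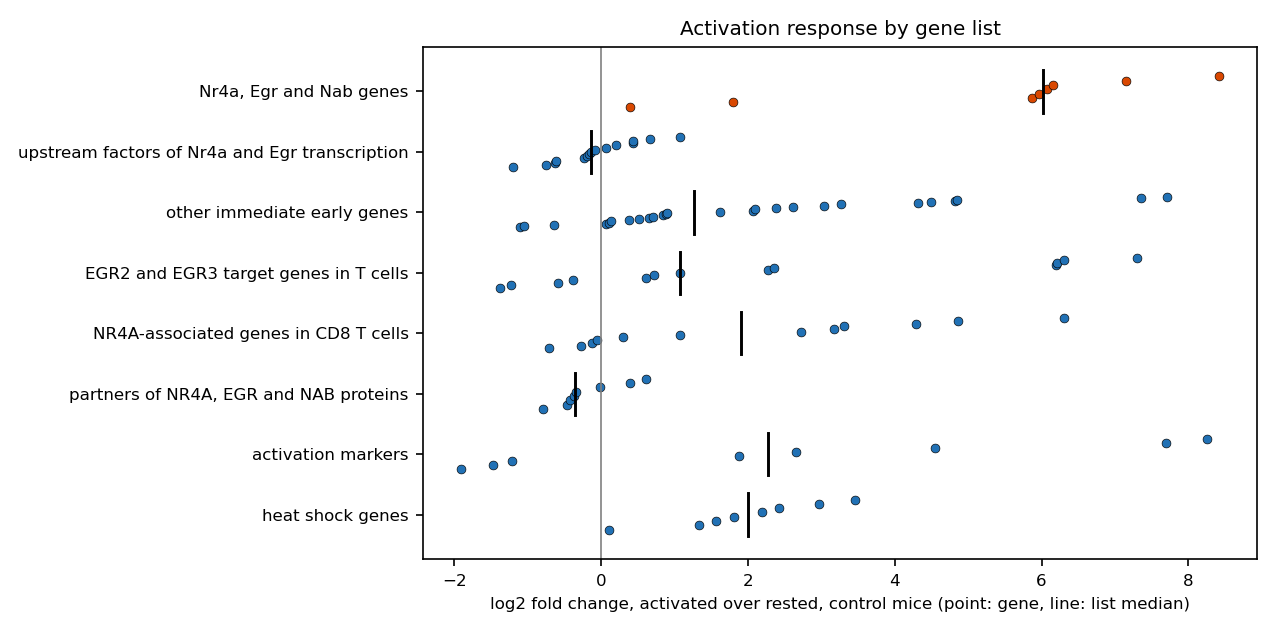
Log2 fold change of activated over rested cells in control mice for each gene of 8 lists, with a point for a gene and a line at the list's median. Egr4 is not drawn. All but 2 of the drawn Nr4a, Egr and Nab genes lie above 5.8, while the list of other immediate early genes has a median of 1.26 and that of upstream factors -0.14.

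Finally, the genes whose levels varied most like 4 of the members were listed by the correlation of log2(CPM + 0.5) over the 10 libraries, after the mean of each state had been taken out, among the 10406 genes whose mean was 5 CPM or more. The 10 points come from 5 mice and share the depth of their libraries, and the values are descriptions. Genotype and sex were not taken out, and Nr4a1 was highest in the female mouse of each genotype in both states. How high the largest r would be among unrelated genes was not computed. Nr4a1 varied most like Kcmf1 (r = 0.92), Ncstn (0.90), Tnfrsf13b (0.89) and Dnttip1 (0.88). Among the members Nr4a1 had r = 0.87 with Egr1, 0.76 with Egr3 and 0.68 with Egr2, but -0.22 with Nr4a2 and -0.02 with Nr4a3. Egr1 varied most like Fmnl3 (0.93), Dcakd (0.92), Kcnip2 (0.92) and Nlgn3 (0.92). Egr2 varied most like Lenep (0.93), Hmg20b (0.88), Vegfa (0.87) and 2810001A02Rik (0.86). Nab2 varied most like Rassf7 (0.95), Atxn7l3 (0.90), Arhgef2 (0.90) and Mettl9 (0.89), and its r with the other members ran from -0.58 for Nab1 to 0.08 for Egr1 and Nr4a3.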

How the data were processed

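RNA was measured in 10 libraries from 5 mice. Total RNA went into a stranded mRNA library kit, per the labels' protocols. The submitters' processing notes name the build mm39 and the programs Subread, FastQC and MultiQC. The strand setting of the counting, the annotation release and all versions were not given in the sources used here. The deposited counts are integers for each gene and library, and their values show no normalization. The deposited FPKM values rescale those counts by gene length and column sum, and served to compare levels between genes.

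The main fit was edgeR's (version 4.0.16, R 4.3.3) robust quasi-likelihood model on TMM-scaled counts of the 18966 genes, of 57010, that filterByExpr kept. It had a mean for each of 4 groups and a sex term, and used every library, so that all groups share an estimate of the spread (biological coefficient of variation 9.14%, 5 residual degrees of freedom, median prior 7.95). The fit was tested on simulated data, with log2 changes of 1 in either direction between genotypes in well-expressed genes. The simulation held no sex, activation or mouse effect. It does not cover smaller differences or the low rested levels of most members. SE is the log2 fold change divided by the square root of F. P-values were adjusted over all genes tested. Mice of a group are separate animals. The males' names all begin with another number than the females', so the sex term also covers whatever that number marks. Rested and activated libraries pair by animal. Once the group means were subtracted, the rested and activated values of a mouse had r = 0.79, 0.79, 0.70, 0.50 and 0.74 over 10406 genes, control mice first. The 2 control mice mirror each other and so give 1 value. Sex was not taken out of these values. In the limma fit with the sex term and mouse as a block, the consensus correlation within a mouse was -0.135. Replicates differed by more than sampling noise.

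Members and lists were chosen with earlier results of these data known. The text names all 9 members, up to 3 genes of a list per comparison by smallest p, and 4 genes alike for each of 4 members. Promoters are RefSeq's, in GRCm38.p6. The alternatives were size factors from DESeq2 (1.42.0), a fit to every gene without the low-count filter, a fit without the sex term, the Wald test of DESeq2, limma-trend (limma 3.58.1) on log2(FPKM + 0.5), a fit to the compared libraries alone, mouse as a block, and each mouse left out. Tables were made in Python 3.11.15. Intervals and floors cover counting error only.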

Additional observations from a re-analysis of the deposited data

Results flagged for a closer look

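For 5 combinations of gene and state every male cKO mouse lay on one side of the male control and the female cKO mouse on the other side of the female control. How often all genes tested do so was not computed, so the count of 5 is no result about the members. The values are log2 ratios of cKO over control CPM, over 1 control and 2 cKO males and 1 control and 1 cKO female, and the difference between the sexes was not tested. Nr4a2 in rested cells had the widest gap, with 0.4 in males and -0.42 in females, at levels of 0.701 to 1.14 CPM. Nr4a3 in rested cells had 0.09 in males and -0.09 in females. In activated cells Nr4a1 had -0.11 in males and 0.06 in females, Egr1 had -0.16 in males and 0.2 in females, and Nab2 had -0.04 in males and 0.2 in females. Nr4a3 in activated cells (0.11 in males and -0.05 in females) and Nab1 in activated cells (0.02 and -0.01) had opposite ratios too, but their 2 male cKO mice lay on different sides of the control. No group held 4 libraries, so no search for a library far from its group was possible.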

How the results depend on the processing

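The rise on activation passed for all 9 members in both genotypes under every alternative run, including mouse as a replicate block, where rested and activated libraries are paired by animal. The replicate block changed no call of a member, and the interaction of Nr4a1 was then -0.63 (adjusted p = 1.0). At rest, members called between genotypes numbered 3 without the low-count filter (Nr4a1 0.61, Egr1 0.32, Egr2 0.45, with edgeR adjusted p = 2.91e-07, 0.00895 and 0.0344) and 1 by DESeq2. Without the filter 2 members were called in the interaction (Nr4a1 -0.63 and Egr3 -0.63, adjusted p = 3.27e-05 and 0.0253). In this fit the log2 differences hardly moved and the SEs did. At rest the SE was smaller for each Nr4a and Egr gene, as for Egr1 (0.15 with the filter and 0.08 without it). It was larger for Nab1 (0.05 and 0.08) and Nab2 (0.07 and 0.08). The cause was not tested. The adjusted p of Nr4a1 at rest ran from 2.91e-07 to 1.0, and its log2 difference from 0.5 to 0.74 with a mouse left out.

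Counts over all genes moved too. Genes called between genotypes at rest were 204 without the filter, 29 by DESeq2, 5 by limma-trend and 7 to 25 with a mouse left out (15 without control mouse 1, 25 without cKO mouse 2). In activated cells they were 211, 19 and 4, then 5 with only the libraries compared and 6 to 49 with a mouse left out (49 without cKO mouse 2). Activation in control cells gave 6981 to 10646 with a mouse left out, the lowest without control mouse 2. The interaction gave 39 without the filter, 3 by DESeq2 and 0 to 3 with a mouse left out (3 without cKO mouse 3).

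Signs turned only for differences that were not called. Fitting only the libraries compared gave 0.01 for Nr4a3 at rest and -0.0 for Egr1 in activated cells, which was -0.02 with no sex term. Limma-trend gave 0.46 for the interaction of Egr4. With a mouse left out, the log2 difference at rest ran from -0.17 to 0.26 for Nr4a2, from -0.26 to 0.16 for Nr4a3, from -0.0 to 3.84 for Egr4 and from -0.02 to 0.33 for Nfatc2. In activated cells it ran from -0.13 to 0.1 for Nr4a1, from -0.12 to 0.17 for Nr4a3, from -0.2 to 0.28 for Egr1, from -0.01 to 0.24 for Egr2, from -0.01 to 0.02 for Nab1 and from -0.01 to 0.15 for Nab2. The interaction ran from -0.08 to 0.23 for Nr4a2, from -0.15 to 0.28 for Nr4a3, from -0.84 to 0.11 for Egr2 and from -2.68 to 0.94 for Egr4.

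Depth limits Egr4, with 0 to 3 rested reads a library, and the other rested levels under 5 CPM. With 2 control mice, each weighs heavily on every control mean.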
